A study of Cricetiscus sungorus with 24 samples.

Results

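Cytochrome P450 and glucuronidation enzymes were described in the kidney of the Djungarian hamster across 5 groups of animals. The genes were taken by name, in a rule set with earlier results of these data known. It took each gene whose symbol is Cyp followed by a number and a letter, or Ugt followed by a number, and Por. This gave 89 of the 15960 genes listed in either table, of which 68 were Cyp genes and 20 were Ugt genes. Experiment 1 listed 49 of them, and experiment 2 listed all 89. Each gene was represented by its transcript with the highest total count.

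Experiment 1 compared adult males kept in a long photoperiod (LP, 16 h of light per day), males exposed to a short photoperiod of 8 h of light for 12 weeks (SP12wk) and males exposed to it for 28 weeks (SP28wk), with 4 animals in each group. It followed the kidney through a simulated season. Experiment 2 compared adult females that had all spent 8 weeks in the short photoperiod, given either the vehicle, dimethyl sulfoxide in saline (SAL, n = 6), or 18 µg of ovine prolactin per injection (PRL, n = 6), by intraperitoneal injection on 3 days. It asked whether prolactin, which falls in short days, is sufficient to change the kidney. Sex, photoperiod history and flow cell differ between the experiments and cannot be told apart, so values of both are given side by side only. RNA came from whole kidney tissue, in which fewer cells of a type and less RNA per cell cannot be told apart.

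Cytochrome P450 enzymes are haem proteins that insert an oxygen atom into fatty acids, sterols, vitamins and drugs. Those of the endoplasmic reticulum take their electrons from NADPH through Por, cytochrome P450 oxidoreductase. The Ugt enzymes attach glucuronic acid to bilirubin, steroids and xenobiotics, often to products of P450 enzymes, so that these can be excreted. In the kidney both groups are known mainly from the proximal tubule, where Cyp4a and Cyp2c enzymes turn arachidonic acid into mediators that act on vessels and salt transport, and where vitamin D is activated and broken down.

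Counts are those of nanopore cDNA reads aligned to mouse transcripts. A symbol is therefore the mouse transcript that a hamster read matched, and in families with many close copies a read could be counted on several of them. In experiment 2 the counts of Cyp4a12a and Cyp4a12b were equal in all 12 libraries, as were those of Ugt1a6a and Ugt1a6b and those of Ugt1a2 and Ugt1a5. Cyp2c65 and Cyp2c66 differed by at most 13 counts in a library, with a correlation of 0.998 across the 12 libraries, and Cyp4a10 and Cyp4a32 also had a correlation of 0.998. The 9 Ugt1a transcripts, known to be made from alternative first exons spliced onto a shared body, had correlations between 0.850 and 1 in 36 pairs. Equal counts in all libraries point to shared reads. A correlation cannot tell shared reads from levels that vary together between animals, since members of different families also correlated, as described below. How far the other members share reads was not tested. Members of Ugt1a, Cyp4a or Cyp2c were therefore not taken as independent measurements. The count of a family lay between that of its highest member and the sum over its members.

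The total count per library, with 1 transcript per gene, was 15688 to 57585 in experiment 1 and 174053 to 756523 in experiment 2. A single count was worth 17.4 to 63.7 CPM (counts scaled to a library of equal size) in experiment 1 and 1.32 to 5.75 CPM in experiment 2. The members made up between 0.0409% and 0.201% of the counts of each experiment 1 library, and between 0.186% and 0.711% of each experiment 2 library. Liver markers, which matter because most of these enzymes are abundant in liver, had summed levels of 0 to 5.20 CPM in SAL and 0 to 15.8 CPM in PRL, with 5 of 8 listed and Alb at 0 to 3.06 CPM. Of 8 proximal tubule markers, 6 were listed in each experiment, and their summed level was 1054 to 1594 CPM in experiment 1 and 640 to 2727 CPM in experiment 2. Of 7 adrenal markers, Akr1b7 was the only 1 listed, at 4.6 to 28.6 CPM in experiment 2.

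No member passed the threshold of an adjusted p of 0.05 in any comparison, by the quasi-likelihood test of edgeR, by DESeq2 or by limma-voom. In PRL against SAL, DESeq2 gave an adjusted p to only 5 of 63 members, so the others could not pass by it. In experiment 2, 63 of 89 members had enough counts to be tested (a count in at least 6 of 12 libraries), and 0 were called, where 0% of all 10696 genes tested were called. At an unadjusted p under 0.05 there were 5 of the 63 members, where 4.88% of all genes were: 4 were higher in PRL, where 2.54% of all genes were, and 1 was lower in PRL, where 2.34% of all genes were. All 4 higher members were Cyp4a transcripts that may share reads, and the lower member was Cyp24a1. In experiment 1, 15 of 49 members could be tested (a count in at least 4 of 12 libraries). The percentage of all 5086 genes called was 0.0197% for SP12wk against LP, 0.138% for SP28wk against SP12wk, 0.216% for SP28wk against LP and 0.275% in the test over the 3 groups. An unadjusted p under 0.05 was reached in SP12wk against LP by 4 members, beside 7.26% of all genes, and in SP28wk against LP by 4 members, beside 8.57% of all genes. None reached it between SP28wk and SP12wk, beside 6.1% of all genes (1.49% lower in SP28wk), and 3 did in the test over the 3 groups, beside 7.47% of all genes.

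In experiment 2 the prolactin and saline animals overlapped for each of the 63 members tested. The share of all genes without overlap was 0.112% higher in PRL and 0.028% lower in PRL. The log2 fold change, PRL minus SAL, was above 0 for 44 of the 63 members, where 52.6% of all genes were above 0. By family, 12 of 14 Cyp4 members, 15 of 16 Cyp2c members and 9 of 9 Ugt1a members were above 0, against 3 of 10 Ugt2 members and 2 of 9 other Cyp2 members. The median was 0.62 over the Cyp4 members, 0.23 over the Cyp2c members, 0.25 over the Ugt1a members and -0.19 over the Ugt2 members, beside 0.03 over all genes. These counts describe rows that may share reads and were given no test.

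**Figure D1:**
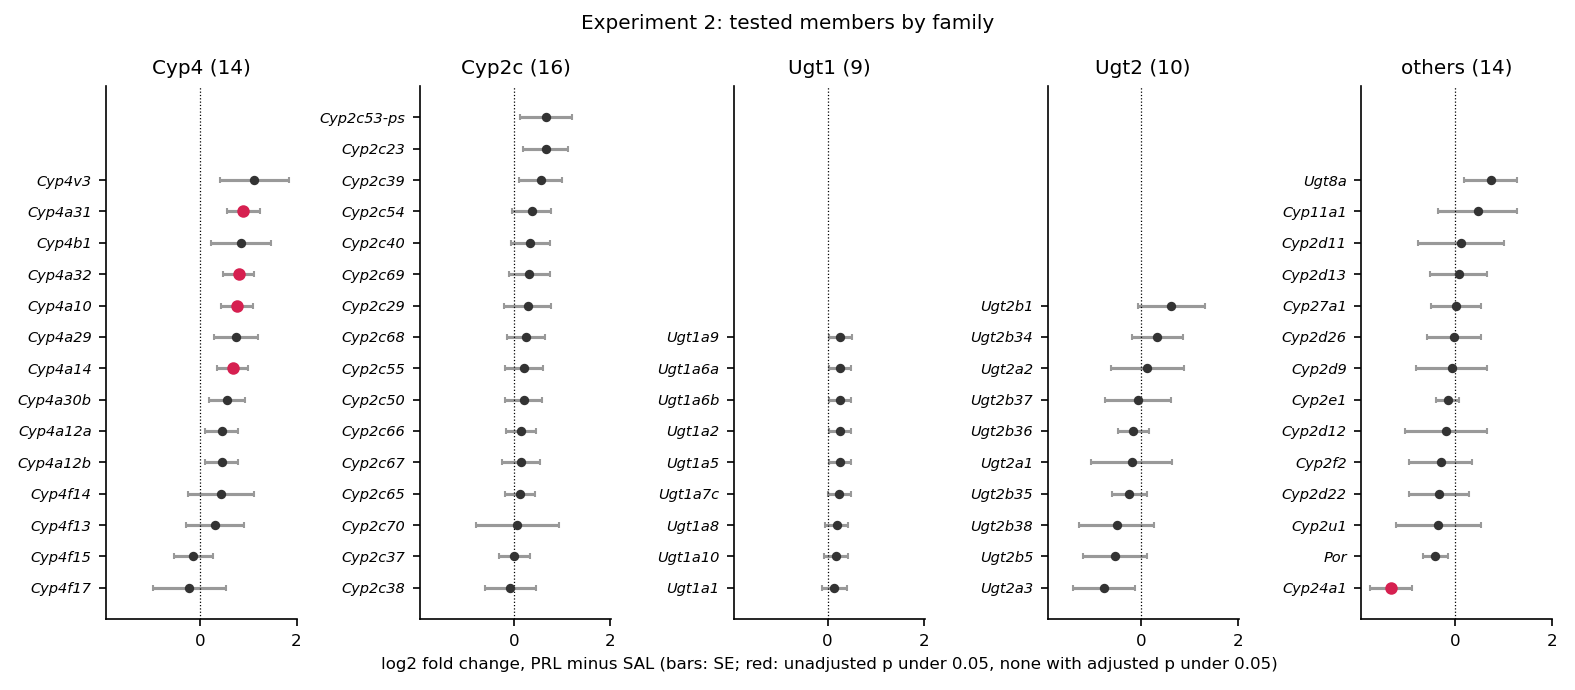
Log2 fold change, PRL minus SAL, of the 63 tested members by family, with the standard error as a bar. The 5 red points had an unadjusted p under 0.05, and none had an adjusted p under 0.05. Cyp4a transcripts lie to the right of 0, Ugt1a transcripts lie close together near 0.2 and Cyp24a1 lies lowest.

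Por carries the electrons for the other members of the endoplasmic reticulum and has no close copy that could share its reads. Its level was lowest at 56.8, median 84.0 and highest at 174 CPM in SAL, and lowest at 51.7, median 71.9 and highest at 92.0 CPM in PRL. The groups overlapped, and SAL replicate 5 stood alone at the top. The mean was 94.3 ± 41.6 CPM in SAL and 73.5 ± 15.8 CPM in PRL (SD, n = 6). The log2 fold change was -0.41 ± 0.25 (SE), with a quasi-likelihood p of 0.111 and an adjusted p of 0.999. Without SAL replicate 5 it was -0.17, with an unadjusted p of 0.494 by edgeR, and over all alternatives it lay between -0.54 and -0.17.

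Cyp4a enzymes hydroxylate the ends of fatty acids, and in the kidney they make the arachidonic acid product 20-HETE. Cyp4a10 was lowest at 51.2, median 95.5 and highest at 288 CPM in SAL, and lowest at 94.9, median 187 and highest at 424 CPM in PRL. The groups overlapped, with 3 PRL libraries (replicates 1, 2 and 5) high and 3 within the lower part of the SAL range. The mean of Cyp4a10 was 138 ± 96.3 CPM for the SAL animals and 234 ± 150 CPM for the PRL animals (SD, n = 6), with a log2 fold change of 0.76 ± 0.33 (SE) and an adjusted p of 0.937 by edgeR.

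Cyp4a31 was lowest at 11.3, median 32.7 and highest at 77.6 CPM in SAL, and lowest at 35.6, median 60.6 and highest at 118 CPM in PRL. Its lowest PRL library lay above the SAL median, but the groups overlapped. Its log2 fold change was 0.90 ± 0.34 (SE), the largest of the Cyp4a transcripts, with an unadjusted p of 0.0130 and an adjusted p of 0.708 by edgeR. Cyp4a32 and Cyp4a14 had log2 fold changes of 0.80 ± 0.33 and 0.67 ± 0.32 (SE), and adjusted p of 0.829 and 0.996 by edgeR. Cyp4a30b and Cyp4a12a, with 800 and 719 counts in all, had log2 fold changes of 0.56 ± 0.38 and 0.45 ± 0.34 (SE).

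The highest of the 8 Cyp4a transcripts in each library, a lower limit for the family, was in SAL at 157 ± 104 CPM and in PRL at 242 ± 144 CPM (SD, n = 6). Markers of the proximal tubule moved with Cyp4a across animals, as described below, and their part in the difference between the groups was not tested. Their summed level was 1585 ± 668 CPM in SAL and 1695 ± 731 CPM in PRL (SD, n = 6). Adipose markers were at a summed 39.5 to 254 CPM in SAL and 78.0 to 315 CPM in PRL. All 5 adipose markers were listed and 4 could be tested, with 4 log2 fold changes above 0 and a median of 1.19, 2 at an unadjusted p under 0.05 by edgeR and 0 at an adjusted one. Among them Ucp1, the uncoupling protein of brown fat, was at 4.15 ± 6.68 CPM in SAL and 20.2 ± 23.0 CPM in PRL (SD, n = 6). The part of adipose tissue in these differences was not tested, and across the 12 libraries Cyp4a10 had r = -0.147 with the summed adipose markers (permutation p = 0.643, adjusted 0.670; rho = -0.021, permutation p = 0.956, adjusted 0.956), with r = -0.299 without the 2 farthest libraries, -0.41 within SAL and -0.493 within PRL. Outside Cyp4a, Cyp4b1, an enzyme of short fatty acids and xenobiotics, had 8 counts in SAL and 17 in PRL and a log2 fold change of 0.86 ± 0.62 (SE). Cyp4f15 had 43 and 44 counts and a log2 fold change of -0.14 ± 0.40 (SE).

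**Figure D2:**
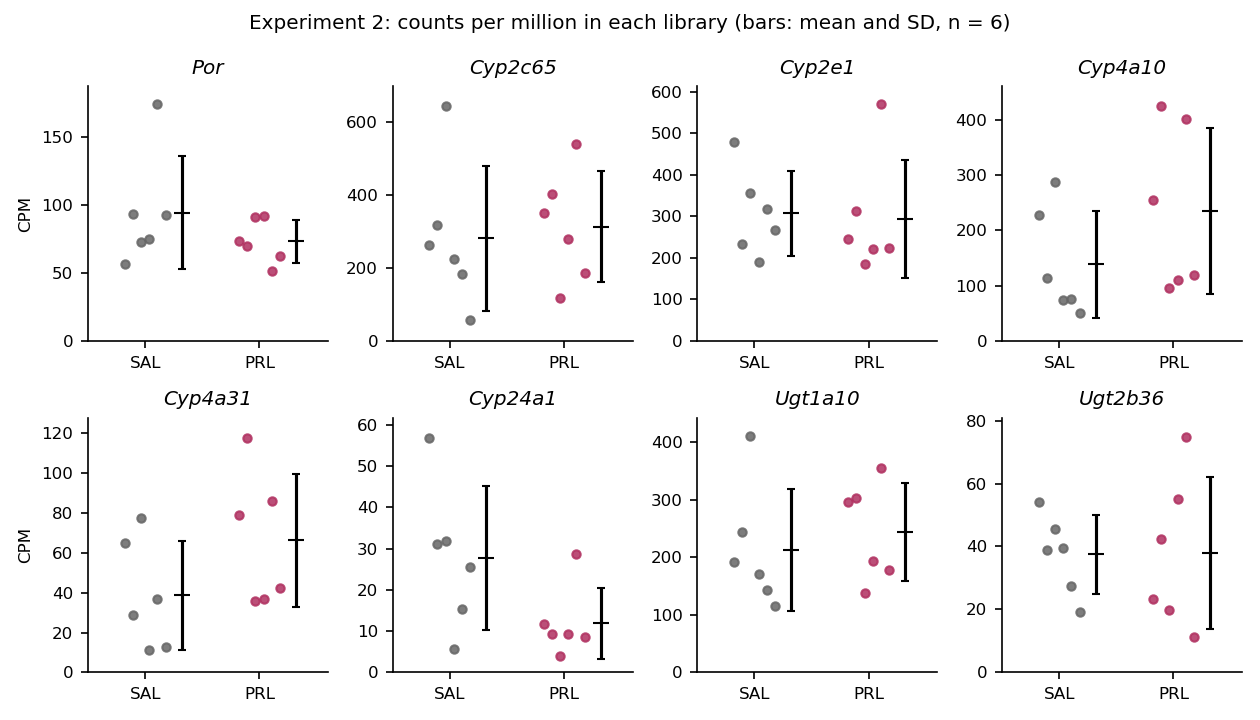
CPM of 8 members in each of the 6 SAL and 6 PRL libraries of experiment 2, each panel on its own linear axis from 0. Points are libraries and the bars show the mean and SD. Cyp24a1 had 5 PRL libraries at or below 11.7 CPM, Cyp4a10 had 3 PRL libraries above 250 CPM, and the groups overlapped in all 8 panels.

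Cyp24a1 removes active vitamin D by hydroxylating its side chain, and the kidney is one of its main sites. Its level in SAL was lowest at 5.64, median 28.4 and highest at 56.8 CPM. In PRL it was lowest at 3.95, median 9.22 and highest at 28.7 CPM. In PRL, 5 of 6 libraries were at or below 11.7 CPM and replicate 5 lay higher, whereas in SAL 5 of 6 libraries were at or above 15.3 CPM and replicate 4 lay lower. These levels rest on 56 counts in SAL and 25 in PRL. The mean was 27.8 ± 17.4 CPM in SAL and 11.9 ± 8.63 CPM in PRL (SD, n = 6). Its log2 fold change was -1.33 ± 0.43 (SE), with an unadjusted p of 0.00382, the smallest of the 63 members, and an adjusted p of 0.400 by edgeR. Without SAL replicate 1, the highest library, the log2 fold change was -0.95 with an unadjusted p of 0.0399 by edgeR.

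The other vitamin D enzymes listed were Cyp27a1 and Cyp2r1, both able to hydroxylate the vitamin in the step before its activation. Cyp27a1 had 18 counts in SAL and 21 in PRL and a log2 fold change of 0.02 ± 0.52 (SE). Cyp2r1 had 2 counts in SAL and 3 in PRL and was not tested. Cyp27b1, which activates vitamin D, was not analysed here.

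Cyp2e1, an ethanol- and ketone-oxidising enzyme, had 1289 counts and was the member outside the large families with most counts in experiment 2. It was lowest at 190, median 292 and highest at 478 CPM in SAL, and lowest at 186, median 234 and highest at 569 CPM in PRL. Apart from PRL replicate 5, every PRL library lay within the SAL range or just under it. Between the groups, Cyp2e1 had a log2 fold change of -0.16 ± 0.23 (SE), with a 95% interval of -0.61 to 0.29 by normal approximation and an adjusted p of 0.999 by edgeR.

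Cyp2c enzymes oxidise arachidonic acid to epoxides and hydroxy acids, and many drugs. Cyp2c65 had the most counts of all members, 1323 in experiment 2. Its level was lowest at 57.6, median 243 and highest at 644 CPM in SAL, and lowest at 119, median 316 and highest at 540 CPM in PRL. Both ends of the range were in SAL, in replicates 6 and 3. For Cyp2c65 the log2 fold change was 0.12 ± 0.30 (SE), with an adjusted p of 0.999 by edgeR and a 95% interval of -0.47 to 0.72. Cyp2c66, with nearly the same counts, had a log2 fold change of 0.15 ± 0.32 (SE). Of the Cyp2c transcripts with fewer counts, Cyp2c50 had 241 counts in all and a log2 fold change of 0.20 ± 0.38 (SE), and the pseudogene Cyp2c53-ps had 47 counts and 0.67 ± 0.54 (SE).

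Ugt1a enzymes include Ugt1a1, which conjugates bilirubin, and Ugt1a6, Ugt1a7, Ugt1a9 and Ugt1a10 forms that act on phenols. Ugt1a10, with 1037 counts, was lowest at 115, median 182 and highest at 411 CPM in SAL, and lowest at 138, median 245 and highest at 356 CPM in PRL. The PRL libraries lay inside the SAL range. Ugt1a10 had a log2 fold change of 0.17 ± 0.24 (SE) and a 95% interval of -0.31 to 0.65. Over the 9 transcripts the log2 fold change was between 0.13 for Ugt1a1 and 0.27 for Ugt1a9, and each had an adjusted p of 0.999 by edgeR. In SAL the highest of the 9 in each library was at 221 ± 116 CPM, and in PRL at 256 ± 84.4 CPM (SD, n = 6).

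Ugt2 enzymes, which conjugate steroids and bile acids, had 419 counts over 10 transcripts, against 7582 over the 9 Ugt1a transcripts that may share reads. Ugt2b36, with 161 counts, was in SAL at 37.5 ± 12.5 CPM and in PRL at 37.8 ± 24.1 CPM (SD, n = 6), with a log2 fold change of -0.17 ± 0.33 (SE). Ugt2a3 had 15 counts in SAL and 10 in PRL and a log2 fold change of -0.77 ± 0.64 (SE), with an unadjusted p of 0.237 and an adjusted p of 0.999 by edgeR. The Ugt2b transcripts had correlations between -0.596 and 0.901, with a median of 0.191 over 21 pairs. Several had few counts, such as 14 for Ugt2b38, and sampling noise lowers such correlations. They therefore cannot be set against those of Ugt1a. Ugt2b36 and Ugt2b35, the latter with 86 counts, had a correlation of 0.808. Ugt8a, which makes the galactosylceramide of myelin and of kidney epithelium and uses galactose in place of glucuronic acid, had 11 counts in SAL and 21 in PRL and a log2 fold change of 0.74 ± 0.55 (SE).

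Members with few counts included enzymes of bile acid and steroid synthesis. Apart from Cyp27a1, given above, 3 enzymes of bile acid and oxysterol synthesis had 14 counts in all and were not tested. Of these counts, 3 were of Cyp7b1. Cyp11a1, which makes pregnenolone from cholesterol, had 5 counts in SAL and 8 in PRL, a log2 fold change of 0.46 ± 0.81 (SE). Cyp26b1, which clears retinoic acid, had 5 counts and Cyp20a1, whose substrate is unknown, had 5 counts. At this depth a difference of these genes was not detectable. Of the 89 members, 18 had under 5 counts in all and 27 had at least 100.

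The spread between animals of the same group was wide for Cyp2c65 and the Cyp4a transcripts. In SAL the highest library was 11.2 times the lowest for Cyp2c65, 15.7 times for Cyp4a30b, 5.62 times for Cyp4a10 and 3.57 times for Ugt1a10. The median of this ratio over the 2107 genes with a mean of at least 50 CPM and a count in every library was 1.98 in SAL and 2.03 in PRL. In PRL the ratio was 4.55 for Cyp2c65, 4.92 for Cyp4a30b, 4.47 for Cyp4a10 and 2.57 for Ugt1a10. The ratio was 3.07 in SAL and 1.78 in PRL for Por, and 2.52 and 3.06 for Cyp2e1, whose PRL value lay above that of Ugt1a10. Ugt1a2 and Ugt1a6a lay near the median of all genes, at 2.07 and 2.13 in SAL and 2.44 and 2.28 in PRL. Of the 20 members with such a mean, 20 lay above the median of all genes in SAL and 19 in PRL, in transcripts that may share reads. The ratios are given as a description, without a test.

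High and low animals were largely the same for Cyp2c65, Ugt1a10 and Cyp4a10, which share no family. Across the 12 libraries the log2 CPM of Cyp2c65 and Ugt1a10 had a Pearson correlation of 0.939 (permutation p = 1e-05, the smallest that the permutations can give, adjusted 0.00025) and a Spearman correlation of 0.993 (permutation p = 1e-05, adjusted 0.00025). Pearson's r was 0.946 after the 2 libraries with the most extreme Cyp2c65 were left out, 0.927 within SAL and 0.966 within PRL. Cyp4a10 and Ugt1a10 had r = 0.882 (permutation p = 0.00029, adjusted 0.00114) and rho = 0.888 (permutation p = 0.00032, adjusted 0.00200), with r = 0.856 without the 2 farthest libraries, 0.842 within SAL and 0.95 within PRL. Cyp2c65 and Cyp4a10 had r = 0.827 (permutation p = 0.00045, adjusted 0.00141) and rho = 0.853 (permutation p = 0.00082, adjusted 0.00358), with r = 0.785 without the 2 farthest, 0.833 within SAL and 0.879 within PRL. SAL replicate 3, PRL replicate 5 and PRL replicate 2 were high for the 3 genes, and SAL replicates 5 and 6 and PRL replicate 3 were low. SAL replicate 4 was also low for Cyp4a10, at 73.4 CPM.

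Tubule markers followed the same order of animals. Cyp2c65 had r = 0.870 (permutation p = 0.00027, adjusted 0.00114) and rho = 0.825 (permutation p = 0.00167, adjusted 0.00596) with the summed proximal tubule markers, and r was 0.788 without the 2 farthest libraries, 0.891 within SAL and 0.861 within PRL. With the markers of other nephron segments, the thick limb and distal tubule, Cyp2c65 had r = 0.907 (permutation p = 4e-05, adjusted 0.00033) and rho = 0.888 (permutation p = 0.00030, adjusted 0.00200), with r = 0.857 without the 2 farthest, 0.952 within SAL and 0.876 within PRL. Ugt1a10 and Cyp4a10 had r of 0.821 and 0.874 with the proximal tubule markers (permutation p = 0.00134 and 0.00032, adjusted 0.00372 and 0.00114) and rho of 0.797 for each (permutation p = 0.00291 and 0.00274, adjusted 0.00808 for both). The r of Ugt1a10 was 0.819 without the 2 farthest, 0.765 within SAL and 0.908 within PRL, and that of Cyp4a10 was 0.837, 0.894 and 0.947. The share of tubule tissue in a library and RNA per tubule cell cannot be told apart here, and all values of a library share its total.

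Neither Cyp2e1 nor Por had adjusted p under 0.05 for both coefficients with Cyp2c65 or with Ugt1a10. Cyp2e1 had both just under 0.05 with the thick limb and distal tubule markers, and differences between coefficients were not tested. With these markers Cyp2e1 had r = 0.669 (permutation p = 0.0168, adjusted 0.0421) and rho = 0.685 (permutation p = 0.0171, adjusted 0.0390), with r = 0.524 without the 2 farthest libraries, 0.491 within SAL and 0.868 within PRL. Cyp2e1 had r = 0.465 with Cyp2c65 (permutation p = 0.127, adjusted 0.187; rho = 0.476, permutation p = 0.122, adjusted 0.169), with 0.593 without the 2 farthest libraries, 0.249 within SAL and 0.831 within PRL. With Cyp4a10 it had r = 0.636 (permutation p = 0.0262, adjusted 0.0545) and rho = 0.545 (permutation p = 0.0710, adjusted 0.128). With the proximal tubule markers Cyp2e1 had r = 0.551 (permutation p = 0.0637, adjusted 0.123) and rho = 0.573 (permutation p = 0.0562, adjusted 0.117). Por had r = -0.629 with Cyp4a10 (permutation p = 0.0217, adjusted 0.0493; rho = -0.727, permutation p = 0.00970, adjusted 0.0242), with -0.538 without the 2 farthest, -0.554 within SAL and -0.656 within PRL. Libraries with a high level of Cyp4a10, as CPM, tended to have a low level of Por. In all, 25 relations of these 5 members with each other and with 3 sets of markers were computed, and 11 had adjusted p under 0.05 for both coefficients. None of the 5 did so with the adipose markers.

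**Figure D3:**
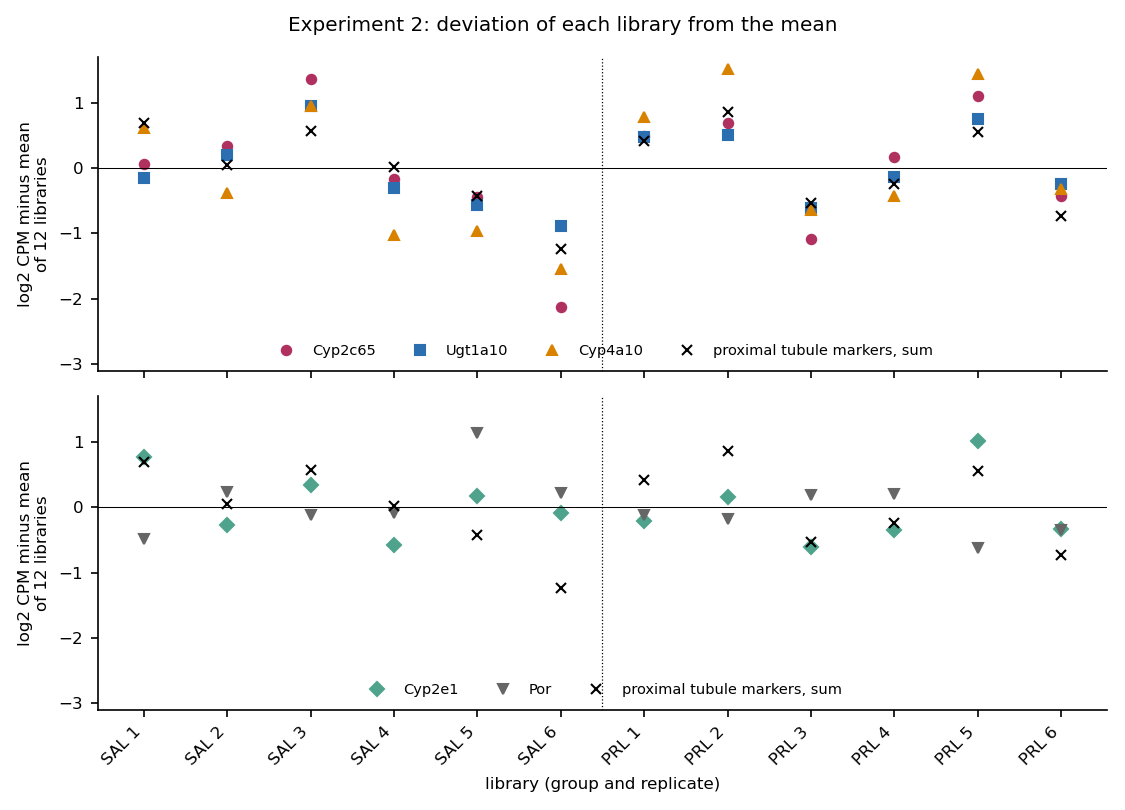
Deviation of log2 CPM from the mean of the 12 libraries of experiment 2, by library, for Cyp2c65, Ugt1a10 and Cyp4a10 (upper panel) and Cyp2e1 and Por (lower panel), with the summed proximal tubule markers as crosses in both. The genes of the upper panel go up and down with the markers (r of 0.821 to 0.874), and Por is highest in SAL replicate 5, where the upper genes are low.

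Experiment 1 had far fewer counts of these genes. The 49 members listed had 313 counts in all, 25 had under 5 counts, and Por was the only 1 with a count in all 12 libraries. Each of the 4 LP libraries had 1 to 13 members with a count, the SP12wk libraries 3 to 31 and the SP28wk libraries 8 to 24. These numbers stand beside total counts of 17830 to 25745 in LP, 15688 to 35388 in SP12wk and 24102 to 57585 in SP28wk. As a share of the counts of a library, the members had a median of 0.103% in LP, 0.0775% in SP12wk and 0.0564% in SP28wk. The ranges overlapped, at 0.0673% to 0.124% in LP, 0.0409% to 0.201% in SP12wk and 0.0452% to 0.186% in SP28wk. A difference between these shares was not tested. LP replicate 2 had 12 counts of Por and none of any other member. The LP libraries are the control of both contrasts with LP, and the SP12wk libraries enter both of their own, so these comparisons share animals. No member was without overlap in any of the 3 pairwise comparisons, where 1.12% and 1.55% of all genes were higher and lower in SP12wk than in LP, 1.85% and 1.53% in SP28wk than in SP12wk, and 1.57% and 1.73% in SP28wk than in LP. Of the 15 tested members, 6 had a log2 fold change above 0 in SP12wk against LP, beside 47.3% of all genes. There were 3 in SP28wk against SP12wk, beside 58.2%, and 6 in SP28wk against LP, beside 58.5%. The median log2 fold change of all genes was 0.00, 0.16 and 0.18 in these comparisons, in that order, and the values of single genes stand relative to it.

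In the 4 LP libraries Por was at 188, 673, 111 and 117 CPM. It was at 204, 319, 151 and 84.8 CPM in the SP12wk libraries, and at 158, 166, 229 and 208 CPM in the SP28wk libraries. LP replicate 2 lay far above the rest, and the other 11 libraries lay between 84.8 and 319 CPM. In SP12wk against LP the log2 fold change of Por was -0.34, from SP12wk to SP28wk it was 0.33, and in SP28wk against LP it was -0.01, and each had an unadjusted p above 0.05 by edgeR. Without LP replicate 2 the values against LP turned to 0.41 for SP12wk and 0.71 for SP28wk, with unadjusted p of 0.564 and 0.285 by edgeR.

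Ugt1a transcripts had no count in any LP library. Ugt1a7c had 1, 0, 0 and 6 counts in the SP12wk libraries and 1, 0, 3 and 0 in the SP28wk libraries. Most of its SP12wk counts came from replicate 4 alone. Pooled over the group, its level was 73.3 CPM in SP12wk and 28.2 CPM in SP28wk, where 3 counts over the 4 LP libraries, the limit that a count of 0 allows, stand for 36.2 CPM. The 95% exact interval of the ratio of SP12wk to LP began at 1.25, counting error only. For the other Ugt1a transcripts this interval began lower, between 0.359 and 0.573. Without SP12wk replicate 4, 1 count of Ugt1a7c remained in SP12wk, under the limit of 3 counts, and the gene was not tested. The unadjusted p was 0.00908 in SP12wk against LP by edgeR, and 4 of 15 tested members, all Ugt1a, were higher at an unadjusted p under 0.05, where 4.56% of all genes were, and none was lower, where 2.69% were. In SP28wk against LP 2 members, Ugt1a1 and Ugt1a8, were higher at that limit, where 6.61% of all genes were. Pooled over SP28wk, both were at 35.2 CPM, under the 36.2 CPM that 3 counts stand for in LP. The interval of the ratio of SP28wk to LP began between 0.385 and 0.535 over the Ugt1a transcripts. Ugt1a transcripts may share reads, and those tested passed the filter through the SP libraries alone, so that they had to differ from LP. None had an adjusted p under 0.05.

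Cyp2c40, Cyp2c67, Cyp2c68 and Cyp2c69 had nearly the same counts as each other, and with more counts in LP they went the other way. Cyp2c40 had 2, 0, 3 and 3 counts in LP, 0, 0, 0 and 2 in SP12wk and 0, 0, 0 and 1 in SP28wk. LP replicate 2 had no count and overlapped with the SP groups. Pooled over each group, Cyp2c40 stood in LP at 96.6 CPM, in SP12wk at 21.0 CPM and in SP28wk at 7.04 CPM. The ratio of SP28wk to LP, on 1 and 8 counts, was 0.0729 (95% exact interval 0.00164 to 0.544, counting error only). The log2 fold change was -2.83 in SP28wk against LP, with an unadjusted p of 0.0165 by edgeR, and 2 members, Cyp2c40 and its copy Cyp2c69, were lower at an unadjusted p under 0.05, where 1.97% of all genes were. In SP12wk against LP the log2 fold change was -1.82 with an unadjusted p of 0.101 by edgeR. It was -4.21 with an unadjusted p of 0.0143 and an adjusted p of 0.793 without SP12wk replicate 4, after which SP12wk held no count of Cyp2c40. In SP28wk against LP it was -4.13 without SP28wk replicate 4, which held the single SP28wk count. These fitted values against a group at 0 are no bound.

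Cyp2c65, in contrast, had 3, 0, 0 and 0 counts in LP, 0, 0, 4 and 4 in SP12wk and 1, 1, 5 and 0 in SP28wk. Cyp2e1 had 1, 0, 1 and 2 counts in LP, 1, 0, 1 and 1 in SP12wk and 1, 0, 1 and 1 in SP28wk. Both overlapped between all groups. The Cyp4 members had 24 counts in all, at most 4 for a transcript, and were not tested. Cyp24a1 had 1 count, in LP, and Cyp4b1 had 1, in SP28wk.

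**Figure D4:**
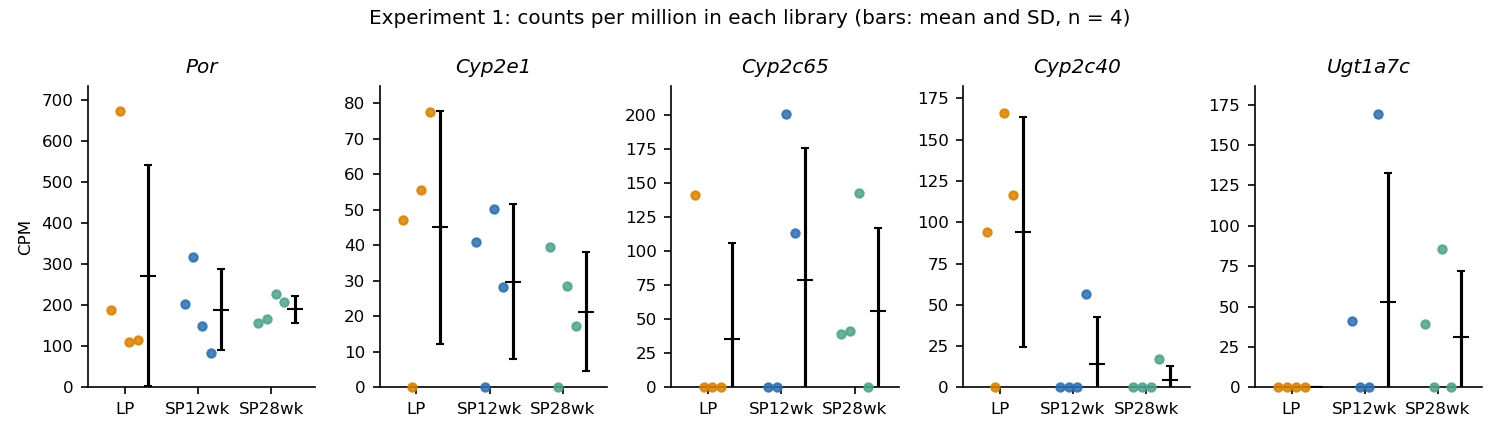
CPM of 5 members in the 4 LP, 4 SP12wk and 4 SP28wk libraries of experiment 1, each panel on its own linear axis from 0. Points are libraries, the bars show the mean and SD and are cut at 0. Por was present in all 12 libraries with LP replicate 2 at 673 CPM, Ugt1a7c was at 0 in LP, and Cyp2c40 was at 0 in 6 of 8 SP libraries.

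Side by side, the experiments differed in the counts of the members relative to Por, which do not depend on the library total. They do depend on Por, which had group means of 190 to 272 CPM in experiment 1 and 73.5 to 94.3 CPM in experiment 2. Of its 65 counts in experiment 1, 12 came from LP replicate 2. As CPM, Cyp2e1 had group means of 21.4 to 45.1 in experiment 1 and 293 to 307 in experiment 2. For each count of Por there were 3.48 counts of Cyp2e1 in experiment 2 (95% exact interval 3.10 to 3.92, counting error only) and 0.154 in experiment 1 (0.0705 to 0.301). Cyp2c65 had 3.58 (3.18 to 4.02) and 0.277 (0.155 to 0.473), and Ugt1a10 had 2.80 (2.49 to 3.16) and 0.123 (0.0510 to 0.257). Cyp4a10 had 2.44 (2.16 to 2.76) and 0.0615 (0.0163 to 0.165). For Cyp2c40 the intervals overlapped, at 0.254 (0.2 to 0.319) and 0.169 (0.0805 to 0.323). The sex of the animals, the photoperiod, the flow cell and the separately processed tables differ together between the experiments, and their parts were not tested.

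Genes that serve these enzymes were taken from 7 lists. In PRL against SAL, 0 of 12 tested receptors of xenobiotics and lipids, 0 of 17 genes of electron transfer and haem, 0 of 8 genes of UDP-glucuronic acid supply and removal, 0 of 10 other conjugating enzymes and 0 of 14 organic ion transporters had an unadjusted p under 0.05, and 0 genes of any list had an adjusted p under 0.05 by edgeR. Among 21 other oxidising and hydrolysing enzymes Aldh1a1, which makes retinoic acid, was in SAL at 59.4 ± 18.2 CPM and in PRL at 95.6 ± 34.8 CPM (SD, n = 6), with a log2 fold change of 0.62 ± 0.26 (SE) with an adjusted p of 0.843 by edgeR. Among 16 genes of sterol synthesis Insig1, which restrains it, was in SAL at 115 ± 37.6 CPM and in PRL at 81.2 ± 31.5 CPM (SD, n = 6), with a log2 fold change of -0.65 ± 0.26 (SE) with an adjusted p of 0.755 by edgeR. Cyp51, the P450 of sterol synthesis whose symbol the naming pattern leaves out, had 14 counts in SAL and 18 in PRL.

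In experiment 1, Inmt, a methyltransferase of indolamines on the list of other conjugating enzymes, was the only gene of these lists with an adjusted p under 0.05. It had no count in the LP libraries, 0 to 7 counts in the SP12wk libraries and 1 to 10 in the SP28wk libraries. Its pooled level was 183 CPM in SP28wk, against a limit of 36.2 CPM in LP (3 counts over the group), and the 95% exact interval of the ratio began at 3.83, counting error only. The adjusted p was 0.00325 by edgeR, between 0.00101 and 0.654 over the alternatives. Inmt passed the filter through the SP libraries alone, so that it had to differ from LP. The call was lost when counts were summed over transcripts (adjusted p = 0.654) and with DESeq2 (adjusted p = 0.434). In experiment 2 Inmt was at 328 ± 138 CPM in SAL and 268 ± 129 CPM in PRL (SD, n = 6). The 7 lists in experiment 1 were also counted at an unadjusted p under 0.05 by edgeR. Against LP, 1 of 8 other oxidising and 2 of 6 other conjugating enzymes were higher in SP12wk, beside 4.56% of all genes. In SP28wk, 2 of 8 and 1 of 6 were higher, and 1 of 9 organic ion transporters, beside 6.61%. From SP12wk to SP28wk, 1 of 6 other conjugating enzymes was lower, beside 1.49%. Inmt, Fmo2 and Slc22a7, among those higher, had no count in LP.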

How the data were processed

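Kidney poly(A) RNA of 24 hamsters was read as nanopore cDNA, 12 libraries on 1 flow cell per experiment. The sources differ on whether the kit was a direct or a PCR cDNA kit, and with PCR the counts would not be independent molecules. The authors basecalled with Guppy 4.2.1, trimmed with Porechop 0.2.4, filtered with Filtlong 0.2.0 (at least 25 bases, mean q of 9) and aligned with Minimap2 2.17 to the mouse genome. The submitters' processing notes also name Salmon, of no stated role or version. The tables the authors deposited hold estimated counts for mouse RefSeq transcripts, before any scaling. All value columns were assigned to a library by the sample labels.

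For each gene the transcript with the highest total was kept, and CPM is its count divided by the sum of these counts in the library. Rounded counts entered the quasi-likelihood test of edgeR 4.0.16 in R 4.3.3 (TMM scaling, 1 model per experiment, Benjamini-Hochberg adjustment over all genes tested, threshold 0.05). Genes were tested if counted in 4 or more of the 12 libraries (experiment 1) or 6 or more (experiment 2). The SE is the size of the log2 fold change divided by the square root of F. Correlations used 100000 permutations. The test was checked on simulated data.

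Alternatives were counts summed over transcripts, median-of-ratios size factors, DESeq2 1.42.0, limma-voom (limma 3.58.1), no filter, a stricter filter (8 of 12 and 12 of 12 libraries), a block for the replicate number, each library left out, and for CPM the total over all transcripts. Members and lists were chosen with earlier results of these data known. Genes named are Por and the 12 members with most counts in each experiment, up to 3 members in each direction with the smallest p in each pairwise comparison, Cyp24a1, Cyp27b1 (not analysed here), Cyp2e1, Cyp7b1 and Cyp4b1, and up to 3 genes of each list in each direction. Other members named (such as Cyp4a14, Cyp4f15, Cyp27a1, Ugt2b36, Ugt8a, Cyp11a1, Cyp2c53-ps) were chosen after their values were seen, as examples of their groups. Replicates are separate animals, each with 1 library. Libraries of a group differed by more than sampling noise, with a chi-square per degree of freedom of at least 1.89. Intervals and limits cover counting error only. Transcript lengths were not used here, so that an order of counts is not an order of levels per length.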

Additional observations from a re-analysis of the deposited data

Results flagged for a closer look

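Among the genes named, each group of libraries with at least 20 counts of a gene was searched for a library far from the others by Dixon's criterion, which chance alone meets in about 1 of 20 groups. Such a library was found in 5 of the 48 groups searched. Por was at 673 CPM in LP replicate 2, beside 111 to 188 CPM in the other LP libraries, and at 174 CPM in SAL replicate 5, beside 56.8 to 93.6 CPM. Cyp24a1 was at 28.7 CPM in PRL replicate 5, beside 3.95 to 11.7 CPM in the other PRL libraries. Cyp2e1 was at 569 CPM in the same library, beside 186 to 313 CPM. Ugt1a1 was at 443 CPM in SAL replicate 3, beside 106 to 203 CPM in the other SAL libraries. PRL replicate 5 had the lowest total count of experiment 2, 174053, and SAL replicate 3 had 218957. Without PRL replicate 5 the log2 fold change of Cyp24a1 was -1.56, with an unadjusted p of 0.00154 and an adjusted p of 0.389 by edgeR.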

How the results depend on the processing

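The number of members called was 0 in each of the 5 comparisons under all 95 alternatives. DESeq2 gave an adjusted p to 5 of the 63 members in PRL against SAL. The number at an unadjusted p under 0.05 in PRL against SAL, 5 by the main test, was 8 without a filter, 3 with the stricter filter, 1 with counts summed over transcripts, 1 with DESeq2, 5 with limma-voom and 1 to 6 without a library. In SP12wk against LP, 4 by the main test, it was 0 to 7 under these alternatives, in SP28wk against SP12wk it was 0 to 2, in SP28wk against LP, also 4, it was 0 to 6, and in the test over the 3 groups, 3 by the main test, it was 0 to 4. The stricter filter, under which 0 reached that limit in experiment 1, tests fewer genes. Over the whole table, genes called in PRL against SAL, 0 by the main test, numbered 92 without a filter, 1 with summed counts and up to 44 without a library. In SP12wk against LP 1 became 0 to 9, in SP28wk against SP12wk 7 became 0 to 11, in SP28wk against LP 11 became 0 to 56, and over the 3 groups 14 became 0 to 41.

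With a block for the replicate number the members called stayed at 0 in each comparison, 8 members in PRL against SAL had an unadjusted p under 0.05, and 52 genes of the whole table were called. Cyp24a1 then had an adjusted p of 0.0634, the smallest of its alternatives, which reached 1. Libraries with the same number had correlations of their deviations of -0.18 to 0.237 in experiment 2 and -0.0953 to 0.206 in experiment 1, so the numbers were not taken as pairs.

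Of the 26 log2 fold changes of named members, 6 changed sign in 14 of 452 alternatives, all in experiment 1, and none had an adjusted p under 0.05. Por in SP12wk against LP, -0.34 by the main test, was 0.41 without LP replicate 2, within -0.61 to 0.41 over the libraries left out. In SP28wk against LP it was -0.01 by the main test, 0.20 with limma-voom, 0.086 without a filter, 0.18 with the replicate block, 0.71 without LP replicate 2, 0.12 without SP28wk replicate 1 and 0.01 without replicate 2, within -0.31 to 0.71. In SP28wk against SP12wk, Cyp2c40 and Cyp2c69 went from -1.005 to 1.39 without SP12wk replicate 4, which held all their SP12wk counts, and lay between -2.33 and 1.39 over the libraries left out. Cyp2c50 was 0.92 by the main test and -0.0059 with limma-voom. Cyp2c55, 0.16 by the main test, was -0.0626 with DESeq2, -0.21 with limma-voom, -0.14 without SP12wk replicate 2 and -0.21 without replicate 3, within -0.21 to 0.42 over the libraries left out. Dividing by the total over all transcripts moved 22 of 65 group means by more than 1 SD, as did summing over transcripts. That total was larger in every library, at 35186 to 138460 counts in experiment 1, against 15688 to 57585. Division by it thus lowers every CPM above 0, and summed counts were divided by it too. These shifts of the scale do not measure how stable the group differences were. Depth limited the tests: 34 of 49 members in experiment 1 and 26 of 89 in experiment 2 had too few counts to be tested.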
